A study of Mus musculus with 9 samples.

Results

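The response of mouse liver RNA to the plasticizer di(2-ethylhexyl) phthalate (DEHP) was read by setting the 3 libraries labelled DEHP against the 3 labelled Control, 6 of the 9 libraries in the series. All animals were C57BL/6J mice dosed by gavage for 8 weeks. Control mice received distilled water, and DEHP mice received 1500 mg/kg/d of the phthalate in corn oil. A further group of 3 libraries, labelled Treatment, had 70 mg/kg green tea polyphenols added to the phthalate and oil; it entered the statistical fit for its share of the spread but not the comparison. Groups given corn oil alone or polyphenols alone belong to the design and were not analysed here, so the effects of the phthalate and of its oil cannot be told apart. The labels give neither sex nor age, and nothing in them ties each library to its own animal, so p-values here reflect the spread among libraries, part of which may be technical.

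DEHP is cleaved in the gut to a monoester that, in rodents, activates PPARA, a nuclear receptor which pairs with RXR, binds direct repeats in DNA and switches on genes that take up, transport and oxidize fatty acids. Long exposure of mice to such compounds enlarges the liver and multiplies its peroxisomes. Phthalates also reach CAR and PXR, receptors that govern enzymes of foreign-compound metabolism, while the pulsed release of growth hormone, relayed by STAT5B, keeps a separate set of liver genes at sex-specific levels.

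Of 18148 gene symbols, the 10388 with a deposited value of at least 1 in at least 3 of the 9 libraries were tested on log2(value + 1), and every log2 difference below is DEHP minus Control on that scale, which understates changes of low genes. A gene was called, and is said to have risen or fallen, at an adjusted p below 0.05 in limma (Benjamini-Hochberg adjustment over all genes tested). Levels are deposited expression values, listed in the order of replicates 1, 2 and 3, and "libraries do not overlap" means that every DEHP value lay on one side of every Control value. In all, 2654 genes (25.5%) were called, 2248 higher (21.6%) and 406 lower (3.91%), with a median difference of 0.12 over all genes. At least 2-fold changes made up 192 of the higher calls (1.85% of genes tested) and 82 of the lower (0.789%). The split moved with the scaling, being 922 (8.88%) and 833 (8.02%) once quantile normalized and 804 (7.74%) and 996 (9.59%) with totals equalized without the major urinary protein (Mup) genes. DEHP libraries lay above Control without overlap in 3509 genes (33.8%) and below in 795 (7.65%). Counts of called members in the lists below are to be read against 21.6% higher and 3.91% lower.

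Libraries within a group were not equal. Control replicates 1 and 2 carried some fat-tissue transcripts that Control replicate 3 and the DEHP libraries lacked, such as Adipoq, the hormone adiponectin, at 33.7, 61.0 and 0 in Control and 0, 0 and 0 in DEHP libraries. Of 13 adipocyte markers 6 were tested and 0 were called, their summed level was 2135 to 4306 in Control and 1039 to 1999 in DEHP libraries, and Adipoq, Plin1, Lep, Ucp1 and Slc36a2 were listed at 0 in all libraries but that pair. Another marker, Cidea, was not lacking from DEHP libraries, at 26.8, 29.9 and 0 in Control and 3.34, 1.61 and 5.33 in DEHP libraries. With Control replicate 3 as the lone control, a fit that assumes this library varies like the other groups, 757 genes were called, 677 higher (6.52%) and 80 lower (0.77%). DEHP replicate 1 lay farthest from Control in 1022 of the 2248 genes that rose (45.5%) and in 164 of the 406 that fell (40.4%), against 420 and 113 for DEHP replicate 2. Red blood cell transcripts also varied, with a summed level of 1568 to 3555 in Control and 775 to 3590 in DEHP libraries and 0 of 5 tested markers called. In bulk RNA, fewer cells of a type and less RNA per cell cannot be told apart.

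The plot of largest differences shows the 12 genes at each end. Of the 12 largest rises, 3 were Cyp4a genes, which encode fatty acid omega-hydroxylases, and 3 belonged to the Cyp2a and Cyp2b families of steroid- and drug-metabolizing P450s. Of the 12 largest falls, 7 were Mup genes. These families consist of near-identical copies, and the assignment of reads among them is not recorded, so the value of a single copy is uncertain.

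**Figure D1:**
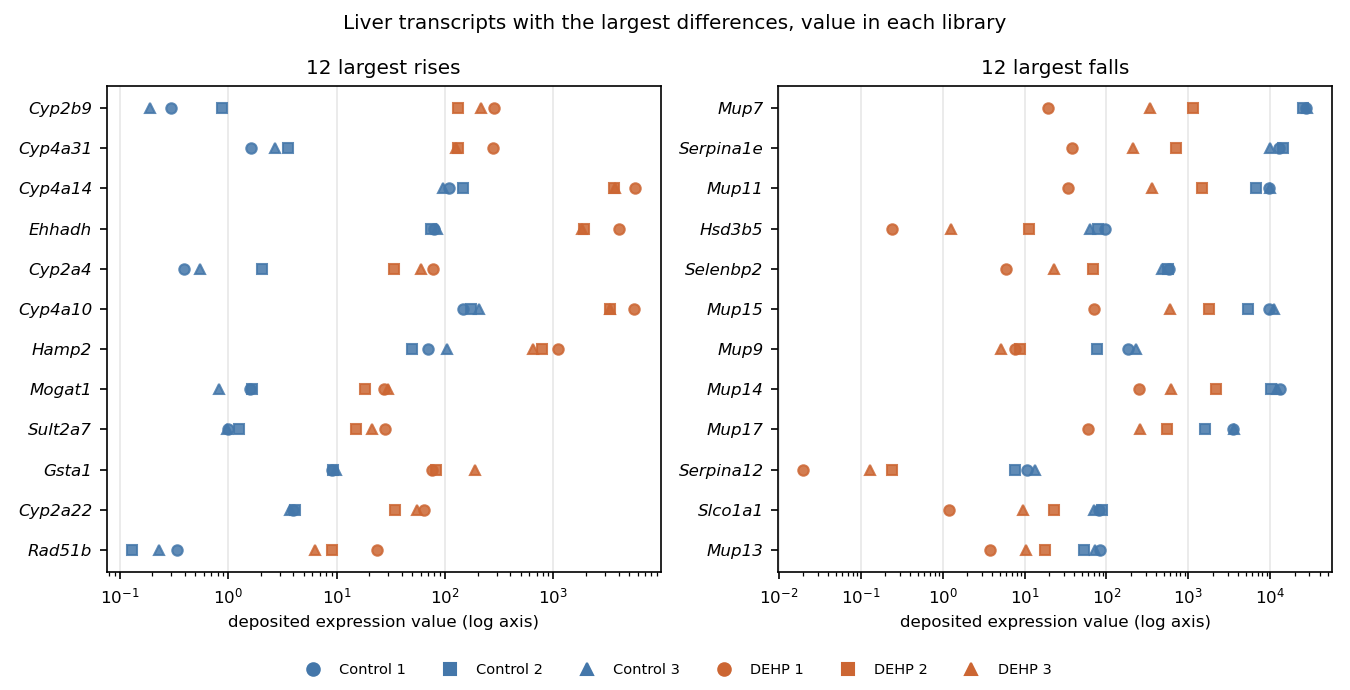
Deposited expression value (log axis) of the 12 genes with the largest rises (left) and the 12 with the largest falls (right) in each Control (blue) and DEHP (orange) library, with circles, squares and triangles for replicates 1, 2 and 3. For each gene shown the Control and DEHP libraries do not overlap, which the choice of genes required, and among the falls DEHP replicate 1 lies lowest for every gene but Mup9.

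Omega-hydroxylation, the step at which microsomal P450s prepare fatty acids for peroxisomal breakdown, held 3 of the 12 largest rises. Of 11 tested members 7 rose and 2 fell, and the median was 1.47. Against the lone control the counts were 6 and 0. Cyp4a14 was at 109, 146 and 95.5 in Control and 5717, 3593 and 3679 in DEHP libraries and rose by 5.19 (SE 0.31), with an adjusted p of 0.000145. Cyp4a10 was at 147, 174 and 206 in Control and 5582, 3347 and 3364 in DEHP libraries, and Cyp4a31, nearly silent with water, at 1.64, 3.55 and 2.68 in Control and 277, 133 and 126 in DEHP libraries. The lowest DEHP value of each was over every Control value by a wide margin, and DEHP replicate 1 was the highest. Summed over the list, these transcripts went from 0.118% to 0.127% of the library total in Control to 0.974% to 1.57% in DEHP libraries. The Cyp4f branch, which also acts on leukotrienes and vitamins, moved otherwise. Cyp4f14 fell by 0.99 (SE 0.29) and Cyp4v3, a hydroxylase of the retina and liver, by 0.59 (SE 0.14), whereas Cyp4f15 rose by 0.40 (SE 0.10).

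Peroxisomal beta-oxidation shortens very long and dicarboxylic fatty acids by repeated rounds of reactions. Of 22 tested members 14 rose and 0 fell, with a median of 0.62. Ehhadh, which carries out a middle pair of reactions, was at 78.6, 74.2 and 84.0 in Control and 3996, 1916 and 1852 in DEHP libraries, a mean increase of 32.8-fold. Hsd17b4, the enzyme parallel to Ehhadh with the other stereochemistry, rose by 0.93 (SE 0.10), so that its mean increase was 1.92-fold. Acaa1b, a thiolase of the last reaction, was at 500.0, 426 and 591 in Control and 3666, 2545 and 2671 in DEHP libraries, while its sister gene Acaa1a rose by 0.63 (SE 0.13). In all of these genes the libraries do not overlap.

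Several enzymes around the peroxisomal cycle rose as well. Abcd3, a transporter that brings acyl-CoA across the peroxisomal membrane, rose by 1.18 (SE 0.20), and Crot, which links the shortened chains to carnitine for export, rose by 1.74 (SE 0.17). Ech1, Decr2 and Eci2, which handle double bonds, rose by 1.26, 0.60 and 0.59, and Hacl1, a lyase of alpha-oxidation, by 1.02. Scp2, whose product includes the thiolase for branched chains and bile acid precursors, was at 0.02 (SE 0.11, adjusted p = 0.923), and the branched-chain oxidases Acox2 and Acox3 were not called. Catalase (Cat), which removes the hydrogen peroxide made in peroxisomes, was at 1238, 1157 and 1177 in Control and 1489.8, 1586 and 1451 in DEHP libraries. Catalase rose by 0.34 (SE 0.07), a mean increase of 1.27-fold, and was called in 15 of 19 other settings.

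The machinery that builds peroxisomes had fewer calls. Of 20 tested peroxins and peroxisomal membrane proteins 6 rose and 0 fell, with a median of 0.27. Pex11a, which promotes peroxisome division, was at 40.6, 42.6 and 36.4 in Control and 68.7, 49.6 and 51.6 in DEHP libraries and rose by 0.48 (SE 0.12). Lonp2, the protease that clears oxidized peroxisomal proteins, rose by 0.75 (SE 0.10). Pex7, Pex13 and Pex5, parts of the import apparatus, rose by 0.42, 0.34 and 0.34. The lone control left 3 of the list called higher, and quantile normalization 1.

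Acyl-CoA thioesterases, which release fatty acids from coenzyme A, had 6 of 10 tested members higher and 0 lower, with a median of 0.64. Acot1 of the cytosol was at 17.6, 23.1 and 22.0 in Control and 275, 110.1 and 97.8 in DEHP libraries, and Acot2 of the mitochondrion at 1.94, 2.26 and 2.17 in Control and 44.0, 12.3 and 22.0 in DEHP libraries. Acot8 of the peroxisome rose by 1.26 (SE 0.14). DEHP replicate 1 stood above the other DEHP libraries for Acot1 and Acot2, which are near-identical copies, and with the lone control 2 of the list were called higher.

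Mitochondrial beta-oxidation and ketone body synthesis rose broadly, without the very large single rises of the peroxisomal genes. Of 22 tested members 18 rose and 0 fell, with a median of 0.67, and the largest rise was that of Eci1, by 1.32 (SE 0.15). The core enzymes Acadvl, Acadl and Acadm, dehydrogenases for very long, long and medium chains, rose by 0.72, 0.93 and 0.95, and Hadha and Hadhb, the trifunctional protein, by 0.87 and 0.99. Acads, for short chains, rose by 0.39 (SE 0.08).

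Entry into the mitochondrion was not uniform. Cpt2 and the carnitine carrier Slc25a20 rose by 0.56 and 0.81. Cpt1a, which makes the acylcarnitine that is the controlled step, was at 85.2, 91.1 and 83.3 in Control and 73.9, 72.6 and 72.5 in DEHP libraries, a difference of -0.24 (SE 0.09, adjusted p = 0.0652), with the DEHP libraries below the Control libraries. Pdk4, an inhibitor of pyruvate oxidation and a common marker of PPARA activity, was at 1.90, 5.92 and 0.70 in Control and 3.75, 1.99 and 2.71 in DEHP libraries, a difference of 0.21 (SE 0.46, adjusted p = 0.781). Its Control libraries ranged more widely than its DEHP libraries, and Control replicates 1 and 2, which held the fat-tissue transcripts, were the higher of the Control group. Ppara itself was at -0.28 (SE 0.14, adjusted p = 0.161). The lone control left 13 members of the mitochondrial list called higher, against 9 of the peroxisomal list.

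**Figure D2:**
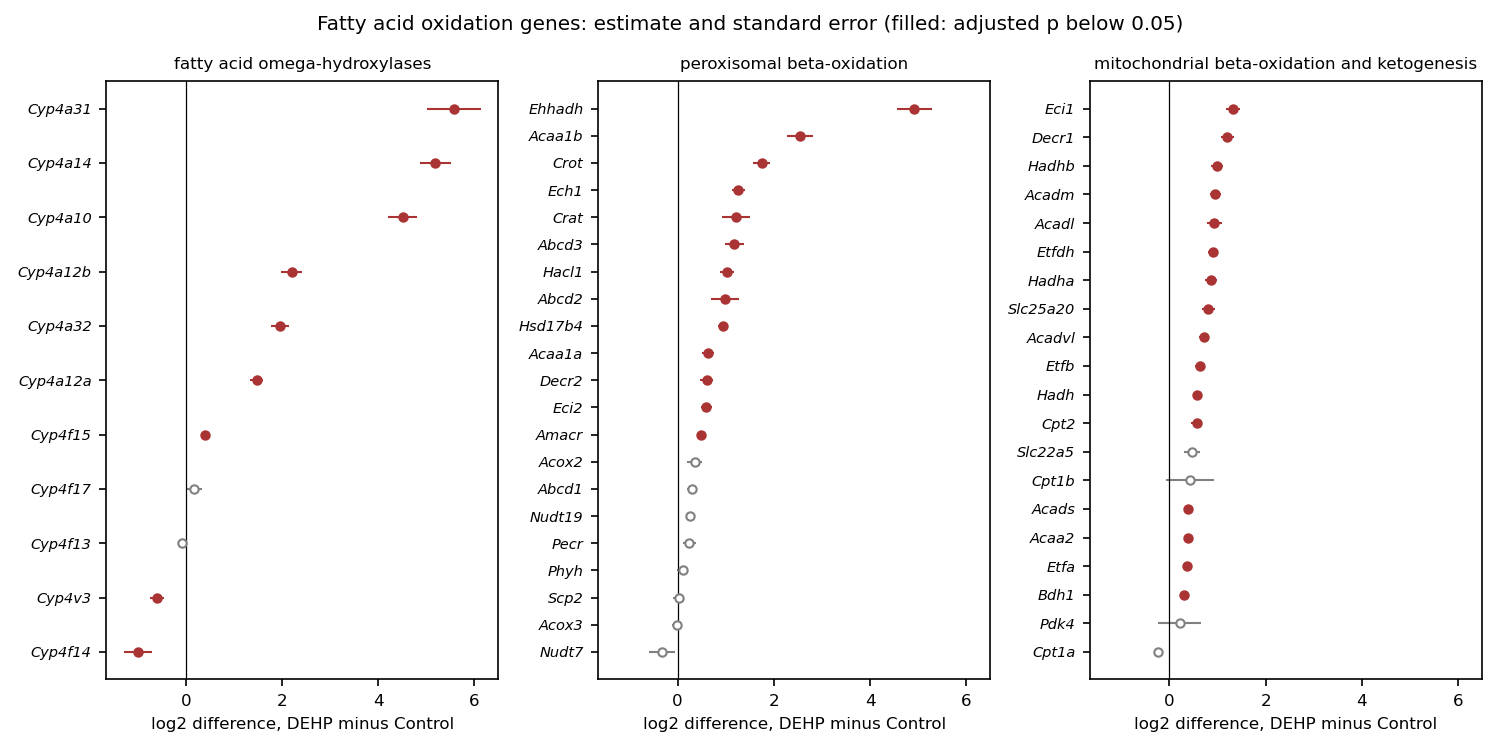
Log2 difference, DEHP minus Control, with its standard error for tested genes, a few left out, of omega-hydroxylation (left), peroxisomal beta-oxidation (centre) and mitochondrial beta-oxidation and ketogenesis (right). Filled points were called at an adjusted p below 0.05. The microsomal and peroxisomal genes spread up to 5.57 and 4.92, while no mitochondrial gene shown exceeds 1.32.

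Fatty acid binding and activation joined the rise. Of 17 tested members 12 rose and 0 fell, with a median of 0.68. Fabp1, the abundant liver fatty acid binding protein that also carries ligands to PPARA, was at 10765, 8746 and 10449 in Control and 28650.2, 25330.2 and 21832 in DEHP libraries, and rose by 1.34 (SE 0.15). Dbi, the acyl-CoA binding protein, was at 1845, 1813 and 1762 in Control and 4237, 3808 and 4028 in DEHP libraries. Fabp1 and Dbi together went from 1.39% ± 0.094 to 3.48% ± 0.53 of the library total (SD, n = 3). Cd36, a fatty acid receptor of the cell surface, was at 23.8, 32.0 and 9.72 in Control and 119, 77.3 and 64.2 in DEHP libraries and rose by 2.04 (SE 0.41), although fat tissue also makes it and its lowest Control value was in replicate 3. Vldlr, a lipoprotein receptor, was at 0.44, 0.84 and 0.20 in Control and 3.41, 1.73 and 1.55 in DEHP libraries, so it rose from values below the filter. The long-chain acyl-CoA synthetases Acsl1 and Acsl5 rose by 0.56 and 1.21, and the transporter Slc27a2 by 0.60.

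The Fabp1 promoter holds a loose match to the direct repeat that the PPARA and RXR pair binds, and no binding was measured here. RefSeq promoters (GRCm38.p6), each running from upstream to just past the gene's start, were found for 8405 of the genes tested and searched on both strands. The exact direct repeat, 2 copies of AGGTCA in the same direction with 1 base between them, occurred in 4 of them (0.0476%), in 0 of 1838 that rose and 0 of 313 that fell. A looser form, with AGGNCA for each copy, was chosen after that result was seen and contains every match of the exact form. It occurred in 30 (0.357%) of all the tested genes with a promoter, in 5 of those that rose (0.272%) and in 2 of those that fell (0.639%). The matches in genes that rose were in Fabp1, Gdf15, Clock, Elovl1 and Chmp4b, and those in genes that fell in F7 and Cyp2d40. Other versions of the element and sites outside this window were not searched, and promoters of Cyp4a10 and Cyp4a14 were not used here. The bases upstream of the Fabp1 start on the plus strand (chr6:71199629-71199878, GRCm38.p6), with the looser match in capitals as its reverse complement, and the Gdf15 match alone, from the window chr8:70632407-70632706 on the minus strand, read as follows.
Fabp1: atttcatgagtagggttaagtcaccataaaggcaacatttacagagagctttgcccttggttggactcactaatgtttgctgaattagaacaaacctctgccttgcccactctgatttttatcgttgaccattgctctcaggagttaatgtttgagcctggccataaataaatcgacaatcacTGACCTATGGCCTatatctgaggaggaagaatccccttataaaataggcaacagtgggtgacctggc
Gdf15: AGGTCAGAGGCCA

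Among lipid droplet and lipolysis genes, 5 of 17 tested rose and 2 fell, with a median of 0.10. Hsd17b11, a droplet-associated dehydrogenase, was at 104, 105 and 102 in Control and 722, 534 and 496 in DEHP libraries, and Plin2, the main droplet coat of hepatocytes, at 104, 91.6 and 95.2 in Control and 204, 131 and 195 in DEHP libraries. G0s2, which blocks the triglyceride lipase PNPLA2, was at 54.0, 65.7 and 69.8 in Control and 27.4, 22.8 and 15.0 in DEHP libraries, and fell by 1.53 (SE 0.19). The other member that fell was Lipe, hormone-sensitive lipase, at 18.4, 26.4 and 7.16 in Control and 5.00, 5.59 and 5.09 in DEHP libraries. Lipe is abundant in fat cells, and the Control libraries with fat-tissue transcripts held its highest values, so that the gap between Control replicate 3 and the DEHP libraries was much narrower. Plin4 and Cidec, likewise expressed in fat, were at -1.85 (SE 0.57, adjusted p = 0.0534) and -2.95 (SE 1.12, adjusted p = 0.104). Against the lone control 1 member was called higher and 1 lower.

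Fatty acid and triglyceride synthesis was divided. Of 24 tested members 5 rose and 4 fell, with a median of 0.19, or 3 and 2 against the lone control. The rises included Scd1, the desaturase of saturated chains, at 508, 528 and 915 in Control and 2617, 1914 and 2137 in DEHP libraries, and Elovl5, which lengthens polyunsaturated chains, at 50.2, 54.7 and 62.6 in Control and 251, 155 and 238 in DEHP libraries. Me1, a source of NADPH, rose by 1.40 (SE 0.28). Mogat1, which joins fatty acids to monoacylglycerol, was at 1.59, 1.67 and 0.82 in Control and 27.3, 18.4 and 29.7 in DEHP libraries, a mean increase of 18.5-fold. Among the falls, Pklr, the liver pyruvate kinase that feeds sugar carbon into lipid, was at 97.2, 81.8 and 107 in Control and 18.3, 24.8 and 27.9 in DEHP libraries. Thrsp fell by 1.41 (SE 0.37), Srebf1, the transcription factor of lipogenesis, by 0.80 (SE 0.22), and Dgat2, which completes triglycerides, by 0.50 (SE 0.10). Fasn, fatty acid synthase, was at 82.1, 78.6 and 112 in Control and 60.8, 56.4 and 84.5 in DEHP libraries with overlapping libraries and was not called.

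Many genes of cholesterol synthesis rose. Of 25 tested members 14 rose and 0 fell, with a median of 0.83. At the head of the pathway, Hmgcs1, which condenses acetyl units, was at 46.4, 39.8 and 33.7 in Control and 129.7, 144 and 314 in DEHP libraries, and Acat2, the thiolase before it, at 37.7, 38.6 and 38.0 in Control and 88.8, 89.3 and 121 in DEHP libraries. Among the enzymes that act on sterols, the demethylase Cyp51 rose by 1.08 (SE 0.16) and the reductase Tm7sf2 by 0.83 (SE 0.11). DEHP replicate 3 was the strongest library here, with a median deviation of 1.14 from the Control mean against 0.67 and 0.74 in replicates 1 and 2, and it was not the strongest for peroxisomal or mitochondrial beta-oxidation. Most of these calls, those of Hmgcs1 and Acat2 among them, were not kept with Control replicate 3 as the lone control. After quantile normalization 9 members were called higher and 0 lower.

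In bile acid synthesis 4 of 11 tested members rose and 1 fell, against 1 and 1 with the lone control. Cyp8b1, the hydroxylase that makes cholic acid, was at 85.8, 89.3 and 87.3 in Control and 204, 240.5 and 341 in DEHP libraries, and Hsd3b7, an early enzyme of the pathway, at 166, 142 and 128 in Control and 288, 268 and 324 in DEHP libraries. Nr0b2, which encodes the repressor SHP, was at 19.6, 16.8 and 24.8 in Control and 69.5, 72.7 and 105 in DEHP libraries, whereas Nr1h4, its activator FXR, fell by 0.47 (SE 0.10). Cyp7a1, the rate-limiting enzyme, was at 41.1, 48.5 and 49.6 in Control and 14.2, 20.7 and 36.8 in DEHP libraries, a difference of -1.03 (SE 0.35, adjusted p = 0.0676). Its DEHP libraries lay below its Control libraries but the gap to DEHP replicate 3 was narrow. Cyp7b1, of the alternative route, was at -0.97 (SE 0.32, adjusted p = 0.0613).

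Several exporters of the bile canaliculus rose. Abcb4, which exports phospholipid, rose by 0.85 (SE 0.12), Abcb11, the bile salt pump, by 0.69 (SE 0.13), and Abcg5 and Abcg8, the sterol pair, by 0.82 (SE 0.12) and 0.81 (SE 0.11). Others did not pass, with Abcc2, the exporter of conjugated anions, at 0.03 (SE 0.11, adjusted p = 0.861) and Atp8b1, a phospholipid flippase, at 0.19 (SE 0.11, adjusted p = 0.254). Abcc4, a basolateral exporter that is low in normal liver, was at 0.69, 0.84 and 0.55 in Control and 6.42, 2.39 and 3.07 in DEHP libraries. Its Control values were all below 1, so it could pass the filter only through the other libraries. Among uptake carriers of the blood side, Slco1a1, a male-biased organic anion carrier, was at 80.4, 88.4 and 70.2 in Control and 1.20, 23.2 and 9.65 in DEHP libraries, and Slc22a7 at 12.2, 11.8 and 12.1 in Control and 2.06, 3.06 and 2.69 in DEHP libraries. The fall of Slc22a7 was even across libraries and was called in all 19 other settings, while Slco1a1 varied widely among DEHP libraries and was called in 5. Of 18 tested transporters 7 rose and 4 fell, against 3 and 1 with the lone control.

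Apolipoproteins and lipoprotein assembly genes had 6 of 21 tested members higher and 2 lower, against 2 and 1 with the lone control. Pltp, which moves phospholipid between lipoproteins, had the largest rise of the list, at 37.9, 23.4 and 45.6 in Control and 273, 219 and 231 in DEHP libraries. Apoa2, an abundant component of high-density lipoprotein, was at 32072, 30531 and 32822 in Control and 49577, 50192 and 55485 in DEHP libraries, and Apoc1 rose by 0.61 (SE 0.10). Apoa4 was at 61.7, 53.1 and 62.2 in Control and 18.3, 19.4 and 25.1 in DEHP libraries, and Apom fell by 0.36 (SE 0.12). Apoa1, the main protein of high-density lipoprotein, was at -0.46 (SE 0.16, adjusted p = 0.0651), so its DEHP libraries lay below its Control libraries without passing. The 13 apolipoprotein genes together went from 11.6% ± 0.48 to 15.3% ± 0.50 of the library total (SD, n = 3). This total includes the Mup genes, whose share shrank. With totals equalized without the Mup genes, 3 members of the list were called higher and 6 lower.

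P450s of families 1 to 3, the main oxidases of drugs and steroids, had 14 of 35 tested members higher and 1 lower, with a median of 0.01, and 6 higher and 1 lower against the lone control. Cyp2b9 was at 0.30, 0.88 and 0.19 in Control and 284, 133 and 216 in DEHP libraries, the largest log2 rise of all called genes that met the naming rule, at 7.15 (SE 0.51). With every Control value below 1, Cyp2b9 could pass the filter only through the other libraries. Cyp2a22, another gene of a family with near-identical copies, was at 3.96, 4.12 and 3.76 in Control and 64.1, 34.8 and 55.6 in DEHP libraries. Cyp2b10, the usual marker of CAR activity, rose by 2.87 (SE 0.37) and Cyp3a11, that of PXR, by 0.74 (SE 0.13). Cyp2c38 rose by 1.35 (SE 0.12). Against these, Cyp2d40 was at 83.3, 84.6 and 88.3 in Control and 33.0, 45.8 and 49.5 in DEHP libraries, and Cyp2e1, an abundant pericentral P450, was at -0.11 (SE 0.12, adjusted p = 0.548). After quantile normalization 10 members were higher and 6 lower.

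Heme supply and electron transfer to P450s did not move together. Alas1, the rate-limiting step of heme synthesis, was at 421, 394 and 310.3 in Control and 222, 169 and 167 in DEHP libraries, and Por, the reductase shared by microsomal P450s, fell by 0.48 (SE 0.13). Among later enzymes of heme synthesis, Alad rose by 0.38 (SE 0.10), Uros by 0.50 (SE 0.13) and Cpox by 0.57 (SE 0.10), while Urod, Ppox and Fech were not called, with differences of 0.11, 0.15 and 0.13. Cyb5b, the outer mitochondrial cytochrome b5, rose by 0.72 (SE 0.10). Of the 14 tested 6 rose and 2 fell, against 3 and 0 with the lone control.

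Glutathione S-transferases had 16 of 21 tested members higher and 1 lower, with a median of 0.69. Gsta1 was at 9.15, 9.21 and 9.97 in Control and 76.7, 83.1 and 190.1 in DEHP libraries, with DEHP replicate 3 apart, and Gstm4 at 49.9, 42.5 and 41.7 in Control and 131, 120.5 and 161 in DEHP libraries. Gstm1, an abundant member, was at 2916, 2539 and 2568 in Control and 6251, 4504 and 5546 in DEHP libraries, and Gstk1 of mitochondria and peroxisomes rose by 0.69 (SE 0.09). The exception was Gstp1, a male-biased transferase, at 6728, 5718 and 7849 in Control and 2938, 3848 and 3810.1 in DEHP libraries. Gsta1 and its neighbour Gsta2 share much sequence, so their separate values are uncertain. The lone control left 7 called higher and 1 lower.

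Other conjugating and hydrolysing enzymes split by family. Among glucuronosyl- and sulfotransferases 7 of 23 tested rose and 4 fell, against 3 and 1 with the lone control. Ugt1a5 was at 17.3, 16.4 and 21.1 in Control and 57.5, 52.1 and 57.4 in DEHP libraries, and Ugdh, which makes the glucuronic acid donor, at 72.0, 69.8 and 65.4 in Control and 186, 148 and 158 in DEHP libraries, while Ugt1a1, the bilirubin transferase, rose by 0.56 (SE 0.12). The members that fell were Ugt2b38, by 1.60 (SE 0.33), Ugt2b1, by 1.29 (SE 0.32), Sult1a1, by 0.77 (SE 0.20), and Ugt2a3, by 0.51 (SE 0.16). Transcripts of the Ugt1a locus share their last exons, so their levels are not independent. Sult2a7, outside that list and among the largest rises, was at 1.00, 1.25 and 0.98 in Control and 28.2, 15.3 and 21.3 in DEHP libraries. Epoxide hydrolases rose, Ephx2 by 0.90 (SE 0.13) and Ephx1 by 0.99 (SE 0.18), whereas the carboxylesterases Ces1b, Ces1c, Ces3a, Ces3b and Ces4a fell, with Ces1b at 54.1, 64.9 and 55.0 in Control and 15.6, 26.3 and 21.3 in DEHP libraries. Ces1g rose by 0.33 (SE 0.10), and Ces1d was at 0.04 (SE 0.24, adjusted p = 0.924). Of the 16 tested carboxylesterases and epoxide hydrolases 3 rose and 5 fell, but against the lone control 0 were called in either direction. The aldehyde dehydrogenases had 9 of 14 tested members higher (3 with the lone control) and 0 lower, led by Aldh3a2, which oxidizes fatty aldehydes, at 1.26 (SE 0.14), and Aldh1a1, of retinal oxidation, at 1.09 (SE 0.12).

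Defence against peroxides and oxidized thiols rose in 16 of 28 tested members and fell in 0, with a median of 0.44. Gpx4, which reduces lipid peroxides, was at 496, 499 and 484 in Control and 878, 822 and 809 in DEHP libraries, Txn1, thioredoxin, at 216, 194 and 188 in Control and 323, 297 and 335 in DEHP libraries, and Sod1 at 2045, 1975 and 2024 in Control and 2830.0, 2951 and 2778 in DEHP libraries. Control and DEHP libraries do not overlap for any of them. Nqo1, a quinone reductase driven by NRF2, was at 4.80, 5.75 and 3.73 in Control and 13.7, 8.79 and 11.9 in DEHP libraries, and Gclc, the first enzyme of glutathione synthesis, at 59.7, 63.4 and 58.3 in Control and 162, 106 and 79.3 in DEHP libraries, with DEHP replicate 1 the highest of both. Members that were not called included Hmox1, Txnrd1, Gss and Osgin1, at differences of 0.25, 0.20, -0.17 and -0.38. The lone control left 6 called.

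**Figure D3:**
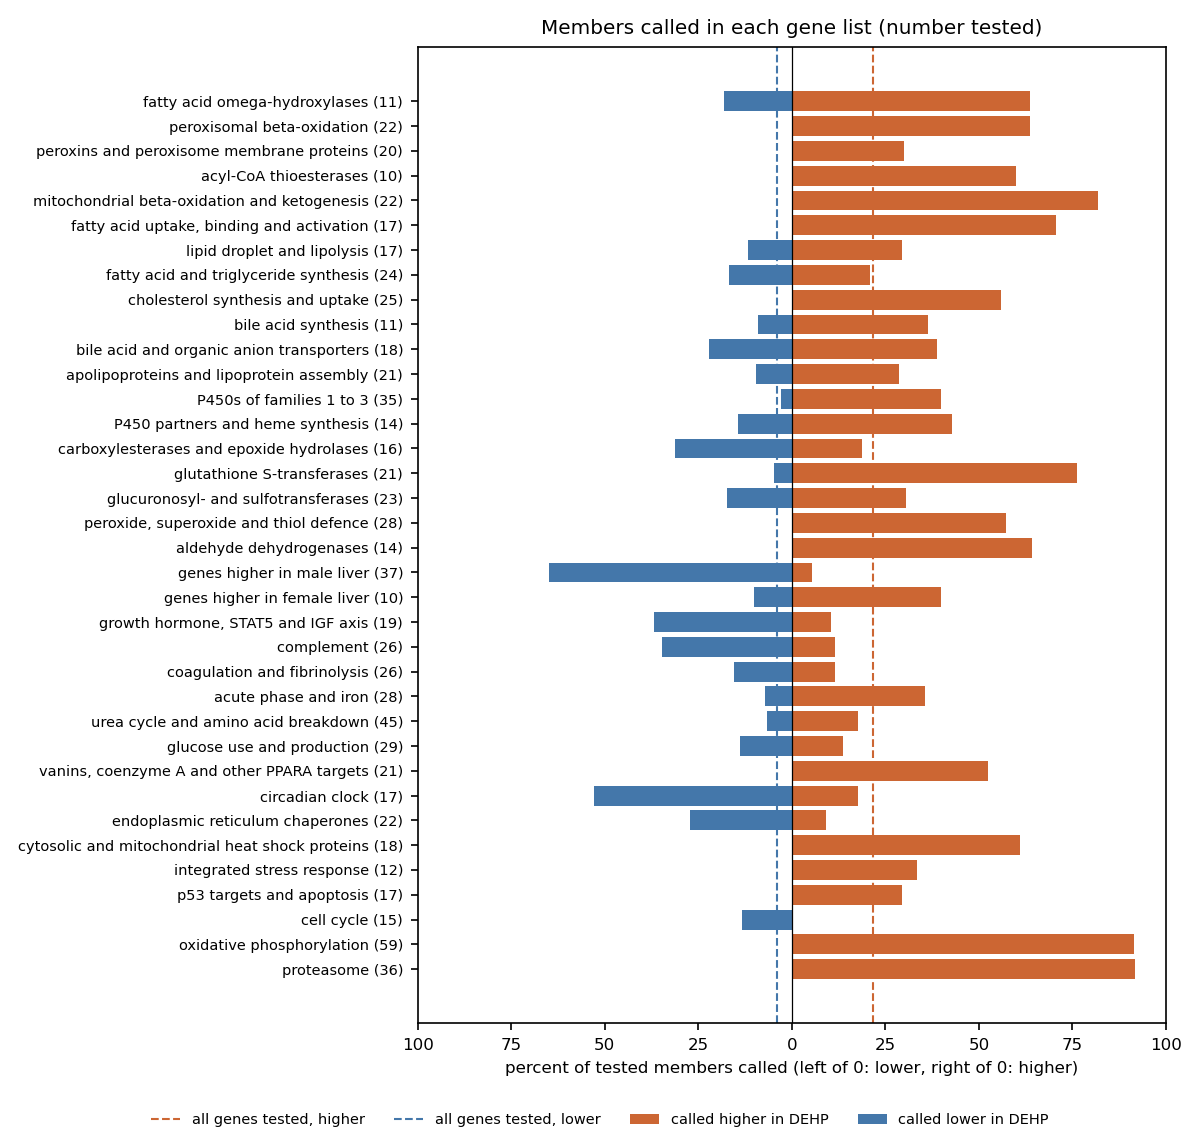
Percent of the tested members of each gene list that were called higher (orange, right) or lower (blue, left) in DEHP against Control, with the number tested in brackets. Dashed lines mark the shares over all genes tested, 21.6% higher and 3.91% lower. Proteasome and oxidative phosphorylation genes reach the highest shares of rises, and male-biased genes the highest share of falls.

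Genes known to be higher in male mouse liver had the highest share of falls among the lists other than cell type markers. Of 37 tested members 24 fell and 2 rose, with a median of -2.10. Many of the tested members, and many of those that fell, were Mup genes. The assignment of reads among these near-identical copies is not recorded, so the count and the median are not those of independent genes. Mup7, a pheromone carrier excreted in urine, was at 27121, 24903 and 27857 in Control and 19.4, 1149.6 and 344 in DEHP libraries, and fell by 7.05 (SE 1.65). Hsd3b5, a steroid dehydrogenase, was at 95.1, 79.7 and 63.8 in Control and 0.24, 11.4 and 1.25 in DEHP libraries, and Selenbp2, a selenium binding protein, at 577, 567 and 477 in Control and 5.95, 69.2 and 22.6 in DEHP libraries. In each the highest DEHP value was that of replicate 2 and the lowest that of replicate 1, and all DEHP values lay below all Control values. Serpina12, which encodes vaspin, was at 10.8, 7.67 and 13.4 in Control and 0.02, 0.24 and 0.13 in DEHP libraries, low in every DEHP library. Those DEHP values were all below 1, so the gene could pass the filter only through the other libraries. On log2(value + 1) the spread of such low values is also compressed. Serpina12 fell by 3.34 (SE 0.19), with an adjusted p of 3.9e-05, and it was called in all 19 other settings, against 12 for Mup7, 15 for Selenbp2 and 8 for Hsd3b5. Egfr, the epidermal growth factor receptor, was at 71.7, 73.4 and 84.2 in Control and 22.8, 38.0 and 28.8 in DEHP libraries, also called in every other setting. Against the lone control 6 members were called lower and 2 higher.

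The 22 Mup genes together went from 20.3%, 16.1% and 20.1% of the library total in Control to 2.37%, 8.49% and 5.62% in DEHP libraries. The copies differed. Mup11 fell by 5.04 (SE 1.43) and Mup15 by 4.29 (SE 1.23), yet Mup22, the copy highest in DEHP libraries, was at 21751, 17736 and 17403 in Control and 7340.2, 21645 and 15135 in DEHP libraries and was not called. Mup2 fell by 1.84 (SE 0.26), and Mup10 by 0.84 (SE 0.24). The male-biased members that rose were Cyp4a12a, at 214, 200.2 and 191 in Control and 491, 595 and 599.7 in DEHP libraries, and Cyp4a12b, at 60.4, 37.9 and 65.2 in Control and 246, 263 and 234 in DEHP libraries, which are omega-hydroxylases. Elovl3, another male-biased gene of lipid metabolism, was at 45.2, 37.5 and 24.5 in Control and 68.4, 81.8 and 149 in DEHP libraries and was not called.

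Of 24 genes listed as higher in female mouse liver, 10 passed the filter on low values, of which 4 rose and 1 fell, against 1 and 1 with the lone control. Cyp2b9 and Slc22a27 were below 1 in every Control library and could pass only through the other libraries. Cyp2a4 was below 1 in all but 1 Control library, so it too needed the other libraries to pass. The filter therefore partly fixes the count of rises. Cyp2a4 was at 0.39, 2.05 and 0.55 in Control and 78.4, 34.2 and 60.7 in DEHP libraries, Slc22a27 at 0.41, 0.50 and 0.24 in Control and 3.18, 1.03 and 1.66 in DEHP libraries and Abcd2, a peroxisomal transporter, at 2.38, 4.25 and 2.41 in Control and 9.02, 6.48 and 5.29 in DEHP libraries, and with Cyp2b9 they made up the rises. Just outside the filter, Cyp2b13 was at 0.08, 0 and 0 in Control and 1.21, 0.44 and 0.45 in DEHP libraries. Sult2a2 was listed at 0 in all of these libraries, Sult2a1 in all but 1, and Cux2, a repressor that marks female liver, was at 0.10, 0.32 and 0.07 in Control and 0.09, 0.10 and 0.14 in DEHP libraries. Fmo2, a flavin monooxygenase, was at 8.85, 13.6 and 10.7 in Control and 4.13, 3.46 and 4.48 in DEHP libraries, and fell by 1.25 (SE 0.20).

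In the growth hormone, STAT5 and IGF axis 7 of 19 tested members fell and 2 rose. Igf1, the hormone released by liver in answer to growth hormone, was at 73.5, 75.3 and 79.6 in Control and 47.9, 53.6 and 51.9 in DEHP libraries, and Igfals, its carrier subunit, at 58.5, 64.3 and 66.3 in Control and 34.8, 38.8 and 33.6 in DEHP libraries. Cish, a STAT5 target that damps the signal, was at 11.2, 9.54 and 5.93 in Control and 1.27, 1.07 and 1.64 in DEHP libraries, and Onecut1, a hepatocyte factor (HNF6), at 10.0, 7.72 and 4.75 in Control and 1.09, 0.89 and 0.91 in DEHP libraries. Both fell by over 2 on the log2 scale, but their lowest Control value was in replicate 3. Stat5b rose by 0.48 (SE 0.09), and Igfbp2, an IGF binding protein, was at 349, 401 and 429.9 in Control and 1065, 968 and 891 in DEHP libraries. After quantile normalization 8 members were lower, and with the lone control 2 were.

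**Figure D4:**
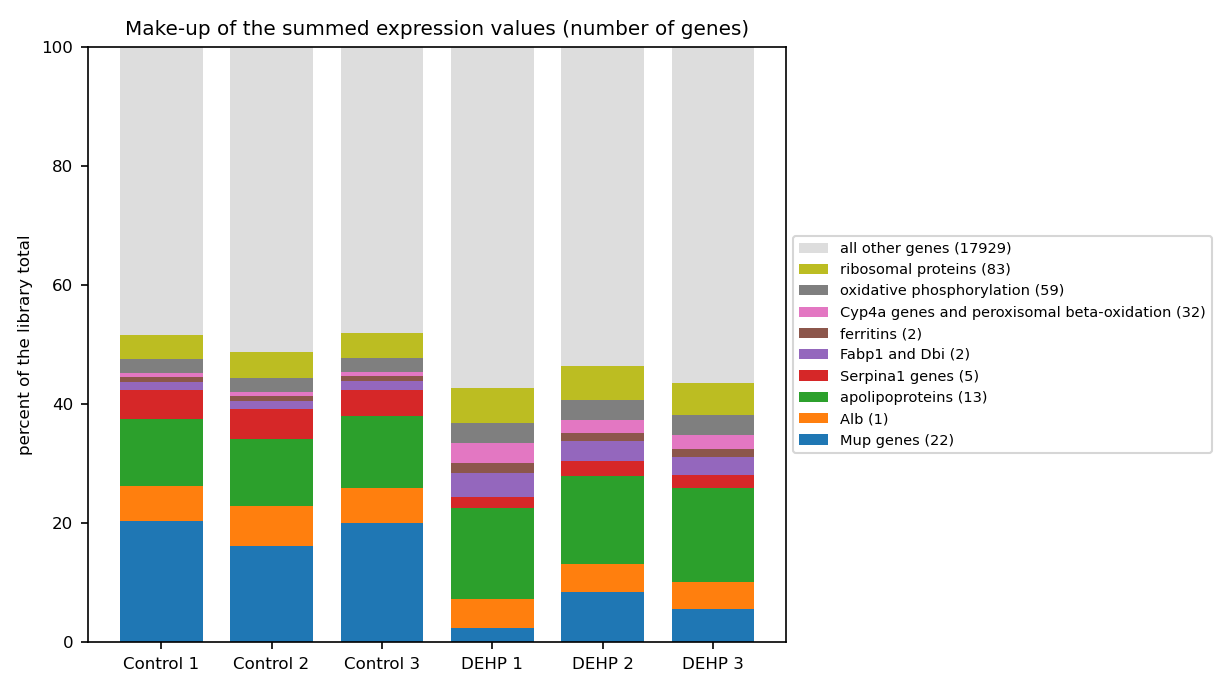
Percent of the summed expression values of each Control and DEHP library taken by classes of abundant genes, stacked, with the number of genes in brackets. The Mup genes shrink from 16.1% to 20.3% of the total in Control to 2.37% to 8.49% in DEHP libraries, and the apolipoproteins widen from 11.6% to 15.3% on average. Shares of a library add up to a fixed total, so a smaller Mup share by itself widens the others.

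Shares of the library total shifted between classes of abundant genes. They add up to a fixed total, so a smaller Mup share widens the other classes without a change of their own. The mean share of the Mup genes differed by -13.3 percentage points, that of the 5 Serpina1 genes, which encode antitrypsin, by -2.59 and that of albumin (Alb) by -1.48. Serpina1e was at 12699, 14430.2 and 10021 in Control and 37.7, 700.3 and 213 in DEHP libraries, while its neighbour Serpina1a fell by 0.56 (SE 0.10). Apolipoproteins differed by 3.71 points, Fabp1 with Dbi 2.09, the Cyp4a and peroxisomal beta-oxidation genes 1.94 and the 83 ribosomal protein genes 1.42. Hepatocyte markers had 2 of 11 tested members higher, 2 lower and a median of -0.06, and their summed share was 14.4% to 15.5% in Control and 14.7% to 15.6% in DEHP libraries.

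Complement components made by the liver fell more than they rose, 9 against 3 of 26 tested. C6, C8a, C8b and C9 of the membrane attack complex fell, with C6 at 98.7, 104 and 93.4 in Control and 14.8, 28.9 and 25.8 in DEHP libraries and C9 at 202, 245 and 189 in Control and 79.5, 121 and 81.8 in DEHP libraries. Of the same complex, Hc (C5) and C8g were not called, at -0.15 (SE 0.07, adjusted p = 0.173) and -0.22 (SE 0.11, adjusted p = 0.188). C3, the central component, was at 1270.1, 1366 and 1349 in Control and 2434, 1710.4 and 2018 in DEHP libraries and rose by 0.61 (SE 0.12). Coagulation was mixed, 3 of 26 higher and 4 lower, with 0 called against the lone control. The fibrinogen chains Fga, Fgb and Fgg rose by 0.55, 0.37 and 0.42. The factors F7 and F11 fell by 0.61 and 1.15, F5 by 0.50 and Hgfac, an activator of hepatocyte growth factor, by 0.39. After quantile normalization 0 coagulation genes, fibrinogen chains included, were called higher and 9 lower. Equal totals without the Mup genes gave the same counts. With the lone control 0 complement genes were called lower and 1, the lectin gene Mbl1, higher.

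Acute phase and iron genes had 10 of 28 tested members higher and 2 lower, against 2 and 1 with the lone control. Hamp2, a hepcidin paralog, was at 70.2, 50.0 and 103 in Control and 1099.5, 782 and 652 in DEHP libraries, while Hamp, which encodes the iron hormone hepcidin, was at 7936, 8469 and 11044 in Control and 7019.9, 6564 and 5307 in DEHP libraries and fell by 0.53 (SE 0.14). The 2 copies are close in sequence and moved in opposite directions. Ferritin, the iron store, rose in both chains. Ftl1 was at 4854, 4840.1 and 5598 in Control and 10919, 8579 and 9475 in DEHP libraries, and Fth1 rose by 0.67 (SE 0.10). Orm2 and Orm3, acid glycoproteins, were at 19.7, 16.2 and 12.9 in Control and 203, 66.7 and 331 in DEHP libraries and at 5.37, 3.03 and 3.36 in Control and 40.8, 26.1 and 44.2 in DEHP libraries. Fgl1, a hepatocyte-secreted protein of injury and regeneration, was at 126, 167 and 120.3 in Control and 889, 256 and 366 in DEHP libraries, carried mainly by DEHP replicate 1. Saa1, a sensitive marker of inflammation, was at 53.9, 30.0 and 37.0 in Control and 140.2, 32.8 and 50.6 in DEHP libraries and was not called, its libraries overlapping.

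Glucose metabolism was divided, with 4 of 29 tested genes higher and 4 lower, or 0 and 2 against the lone control. Besides Pklr, the falls were Gys2, liver glycogen synthase, by 0.80 (SE 0.14), Pygl, glycogen phosphorylase, by 0.34 (SE 0.10), and Slc37a4, the glucose 6-phosphate carrier, by 0.74 (SE 0.18). The pentose phosphate enzymes Pgls, Pgd and Taldo1 rose by 0.55, 0.74 and 0.43, and Ppargc1a, a coactivator of oxidative genes, was at 1.58, 1.46 and 0.92 in Control and 2.55, 4.12 and 3.57 in DEHP libraries. Of 45 urea cycle and amino acid genes 8 rose and 3 fell. This balance turned with the scaling. It was 1 higher and 8 lower after quantile normalization, and 1 and 5 with totals equalized without the Mup genes. Kynu, of tryptophan breakdown, rose by 0.63 (SE 0.12), while Asl of the urea cycle and Prodh, which oxidizes proline, fell by 0.65 and 0.68. Of those 45, 0 were called against the lone control.

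A list of further PPARA targets, genes of coenzyme A supply and related genes had 11 of 21 tested members higher and 0 lower. It also holds the receptors Ppara, Rxra and Nr1h3, and Nr1h3, at 0.26 (SE 0.07), is among the 11. Retsat, retinol saturase, was at 169.9, 169.7 and 178 in Control and 1296, 903 and 816 in DEHP libraries, and Vnn1, the pantetheinase that recycles coenzyme A precursors, at 18.3, 17.2 and 15.8 in Control and 161, 74.3 and 61.1 in DEHP libraries. Ucp2, an inner mitochondrial carrier, was at 25.1, 29.9 and 20.7 in Control and 164, 113 and 151 in DEHP libraries. Coasy, the last enzyme of coenzyme A synthesis, was at 60.6, 60.0 and 59.7 in Control and 90.7, 88.5 and 89.6 in DEHP libraries, a small rise of 0.57 with very even libraries.

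Respiratory chain and proteasome transcripts rose slightly but nearly throughout. Of 59 oxidative phosphorylation genes 54 rose and 0 fell, with a median of 0.48, and no tested member was below 0.20. Ndufa5 of complex I was at 136, 123 and 135 in Control and 217, 222 and 232 in DEHP libraries, and Cox7b of complex IV at 179.7, 164 and 175 in Control and 273, 285 and 259 in DEHP libraries. The list held 2.31% ± 0.036 of the total in Control and 3.35% ± 0.023 in DEHP libraries (SD, n = 3). Of 36 proteasome genes 33 rose and 0 fell, with a median of 0.51, and Psmd4, a ubiquitin receptor of the cap, rose by 0.85 (SE 0.10). Both counts depended on scaling, since after quantile normalization 19 and 15 members were called higher. With totals equalized without the Mup genes 33 and 20 were called higher, and 0 and 1 lower.

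Among chaperones of the cytosol and mitochondria 11 of 18 tested members rose and 0 fell, among them the mitochondrial pair Hspd1 and Hspe1 by 0.64 and 0.95 and the heat-inducible Hspa1b, at 2.21, 3.29 and 2.88 in Control and 11.9, 7.89 and 7.81 in DEHP libraries. Among those of the endoplasmic reticulum 6 of 22 fell and 2 rose. Creld2 was at 37.5, 51.2 and 25.6 in Control and 19.9, 16.1 and 20.6 in DEHP libraries, Xbp1, a transcription factor of the unfolded protein response, at 123, 109 and 98.8 in Control and 77.6, 74.3 and 73.7 in DEHP libraries, and Dnajb9, a cochaperone, at 32.0, 29.6 and 26.0 in Control and 40.6, 46.0 and 42.6 in DEHP libraries, which rose. Hspa5 (BiP), the main chaperone there, was at -0.40 (SE 0.16, adjusted p = 0.0885), with overlapping libraries. With the lone control 1 member of each list was called higher and 0 lower.

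In the integrated stress response 4 of 12 tested members rose and 0 fell. Gdf15, a stress hormone that lowers appetite, was at 2.31, 2.55 and 2.44 in Control and 8.79, 12.98 and 11.5 in DEHP libraries, and Trib3, a pseudokinase induced by ATF4, at 4.67, 2.42 and 2.63 in Control and 9.18, 12.3 and 13.3 in DEHP libraries. Slc3a2 and Sesn2 rose by 0.89 and 0.51. Among p53 targets and apoptosis genes 5 of 17 rose (1 with the lone control) and 0 fell, Trp53inp1 by 1.13 (SE 0.22), Bbc3 by 0.61 (SE 0.14) and Bax by 0.59 (SE 0.12). Cdkn1a, the cell cycle inhibitor p21, was at 4.52, 5.28 and 2.15 in Control and 24.7, 3.73 and 12.9 in DEHP libraries, high in DEHP replicates 1 and 3 only, and was not called. Rad51b, a recombination repair gene, was at 0.34, 0.13 and 0.23 in Control and 23.8, 9.14 and 6.35 in DEHP libraries, a rise of 3.32 (SE 0.49). Its Control values were all below 1, so it could pass the filter only through the other libraries.

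Of 31 listed cell cycle genes 15 passed the filter, of which 0 rose and 2 fell. Rrm2, which makes deoxynucleotides for DNA replication, was at 7.53, 5.22 and 6.39 in Control and 1.23, 1.15 and 1.17 in DEHP libraries, and Ccne1, cyclin E1, at 1.67, 2.08 and 1.54 in Control and 1.00, 0.59 and 0.30 in DEHP libraries. Mki67, a proliferation marker, did not reach the filter and was at 0.09, 0.15 and 0.14 in Control and 0.18, 0.07 and 0.14 in DEHP libraries. The summed level of the 31 genes was 53.5 to 67.2 in Control and 49.2 to 58.4 in DEHP libraries.

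Clock genes shifted in both directions. Of 17 tested members 9 fell and 3 rose, with a median of -0.52, and 3 fell and 1 rose against the lone control. The period genes Per3 and Per2 fell, Per3 being at 6.60, 7.38 and 8.33 in Control and 2.53, 3.07 and 1.94 in DEHP libraries and Per2 at 8.16, 9.43 and 10.3 in Control and 4.45, 4.18 and 1.91 in DEHP libraries, and Tef, an output factor, by 0.77 (SE 0.15). Nr1d1, the repressor REV-ERB alpha, was at 17.4, 15.8 and 13.1 in Control and 38.3, 51.7 and 71.2 in DEHP libraries, and Nfil3, which opposes Tef, at 6.21, 8.09 and 9.30 in Control and 18.1, 12.7 and 14.9 in DEHP libraries. Clock was at 1.95, 1.91 and 1.62 in Control and 3.63, 2.55 and 3.60 in DEHP libraries. The hour at which tissue was taken is not given in the labels, so group and hour cannot be told apart.

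In the fit of all 9 libraries few markers of other liver cells were called. Kupffer cell and macrophage markers had a median of 0.41, with 1 of 14 called, Cd5l, at 17.0, 16.3 and 15.2 in Control and 32.1, 21.6 and 27.4 in DEHP libraries, and their summed level was 194 to 249 in Control and 243 to 377 in DEHP libraries, highest in DEHP replicate 1. When only the 6 Control and DEHP libraries were fitted, 6 of the 14 were called higher, beside 2082 of all 10388 genes tested. After quantile normalization 0 of the 14 were called, and likewise with totals equalized without the Mup genes. Of 14 endothelial, 13 stellate cell and 6 bile duct markers tested 0 were called. Pericentral hepatocyte markers had 2 of 12 lower, Gulo by 0.79 (SE 0.17) and Slc1a2 by 0.59 (SE 0.16), and periportal markers 4 of 11 higher, among them Hal by 0.55 (SE 0.17), while with the lone control 0 of either list were called. Of 12 pancreas markers only Cela1, an elastase that liver also transcribes at a low level, passed the filter, at 22.5, 20.9 and 17.5 in Control and 5.98, 8.24 and 7.63 in DEHP libraries. Neutrophil, T and NK cell and B cell markers had 2 tested members each and 0 called. Whether these markers bear on the gene groups above was not tested.

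**Figure D5:**
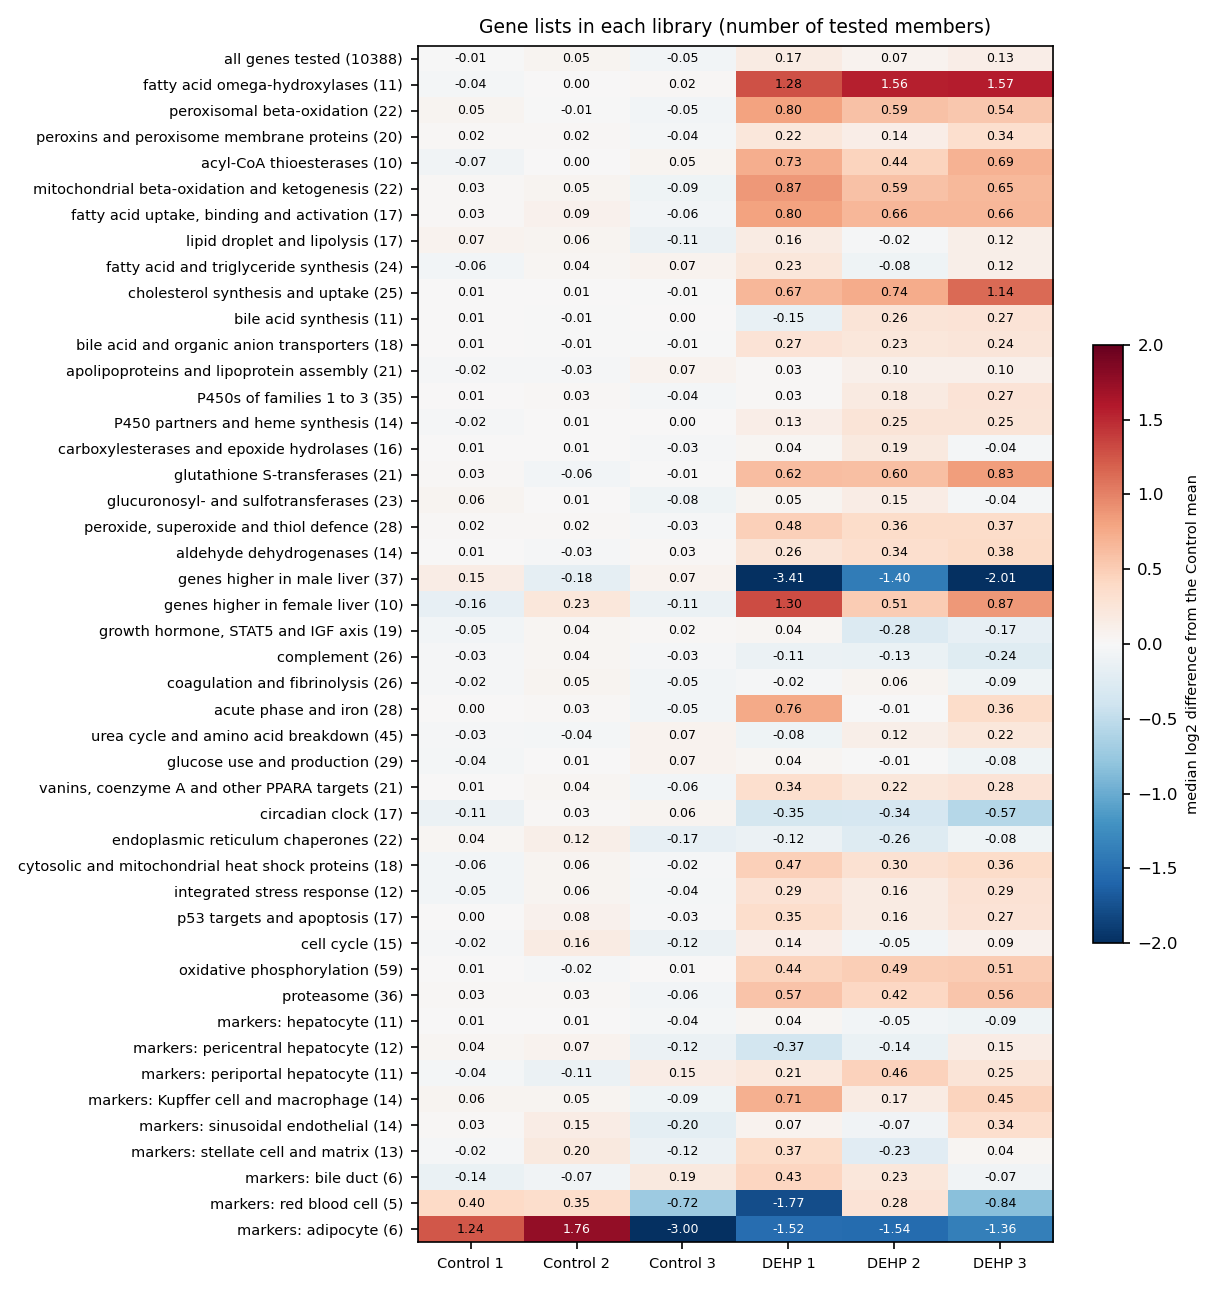
Median, over the tested members of each list, of the log2 difference of each library from the Control mean, with the number of members in brackets and lists of fewer than 5 tested members left out; red is above and blue below the Control mean, and colours end at -2 and 2. Control libraries lie near 0 in every list shown except the red blood cell and adipocyte markers, and male-biased genes were at -3.41, -1.40 and -2.01 in DEHP replicates 1, 2 and 3.

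DEHP libraries shared the direction of the main groups and differed in degree. For peroxisomal beta-oxidation the list medians, as deviations from the Control mean, were 0.80, 0.59 and 0.54 in DEHP replicates 1, 2 and 3, and for mitochondrial beta-oxidation 0.87, 0.59 and 0.65. Male-biased genes were lowest in replicate 1 and least reduced in replicate 2. Acute phase and iron genes were raised in replicates 1 and 3, at 0.76 and 0.36, and not in replicate 2, at -0.01. Cholesterol synthesis and glutathione S-transferases were highest in replicate 3, at 1.14 and 0.83. Respiratory chain genes were close across replicates, at 0.44, 0.49 and 0.51.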

How the data were processed

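Liver RNA of 9 libraries, 3 per group, was measured by sequencing of messenger RNA selected on oligo(dT) beads, per the labels' protocols. Groups and replicate numbers came from the sample titles. The authors deposited, for each symbol in each library, a signal that is never negative and has 2 decimals. The values are of the FPKM or TPM kind, but which was not stated, and library totals ran from 789076 to 863300. Per the submitters' processing notes, mm9, CASAVA 1.7 and limma were used, with no roles given; which aligner, counter or annotation was used is not stated. Depth is therefore unknown and no counting intervals could be given.

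From these values, 1 limma model (version 3.58.1, R 4.3.3, trend and robust variance) of the 3 group means was fitted to log2(value + 1) in all 9 libraries, and the DEHP minus Control contrast was adjusted over 10388 genes. The code was tested on simulated data. The alternatives were quantile normalization, equal totals, centring on the median gene, equal totals without the Mup genes, no filter, a pseudocount of 0.1, limma without trend and robust estimates, the 6 libraries alone, a replicate block, Control replicate 3 as the lone control, and leaving out each library, 19 settings in all.

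The members and lists were chosen with earlier results of these data known. Values under each alternative were recorded for the 12 called genes with the greatest rise and the 12 with the greatest fall, provided their libraries do not overlap, the higher group averages at least 5 and the symbol is not provisional. They were also recorded for up to 4 called genes of smallest adjusted p from each list and for a set of well-known liver genes. Members of lists of up to 12 tested genes and members moving against their list could be named too, and some were. Every other gene named, such as Acaa1b, Hmgcs1, Cyp2b10, Gclc, Cish, Onecut1, Ucp2 and Per2, was picked once its values were known. Some genes that the rule names are not reported here.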

Additional observations from a re-analysis of the deposited data

How the results depend on the processing

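Values under each alternative were recorded for 179 genes, of which 168 were called, and 87 of these were called in the same direction in all 19 other settings. The split between higher and lower followed the scaling. Quantile normalization gave 922 and 833 (1755 called), a shift of the median gene to 0 gave 1271 and 736, and equal totals without the Mup genes gave 804 and 996. A fit whose single control was Control replicate 3 called 757 genes, 677 higher and 80 lower. Leaving out 1 library at a time gave 1703 to 2727 called genes, 1471 to 2317 higher and 232 to 410 lower. The lowest came without Control replicate 1, when 1703 were called, 1471 higher and 232 lower, and without Control replicate 2 the lower count was 233. Equal totals, no filter, a pseudocount of 0.1, limma without trend and robust estimates and the 6 libraries alone gave 2252, 2259, 2668, 2602 and 2467 called genes. The cause was not tested.

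Among those 179 genes, direction turned in 3, none of them called; the direction of other genes named in the text was not followed. Ces1d was at -0.249 after quantile normalization, -0.071 with the median gene at 0 and -0.173 without the Mup genes, and ranged from -0.137 to 0.28 as single libraries were left out, below 0 without Control replicate 1 (-0.037) or DEHP replicates 1 and 2 (-0.137 and -0.015). Cyp2e1 was at 0.664 after quantile normalization and 0.10 with the lone control, and Pdk4 ranged from -0.257 without Control replicate 3 to 0.756 without Control replicate 2.

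Same-numbered Control and DEHP libraries deviated from their group means with correlations of -0.09, -0.16 and 0.00 across genes. No library correlated best with the one of its own number. No pairing by number was seen, but so few libraries a group cannot exclude it. A fit with the replicate block called 2271 genes, 1947 higher and 324 lower. Of 98 counts of called list members, 54 moved by over 1.5 times with the lone control, 41 without the Mup genes and 38 after quantile normalization.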

Other observations

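Several genes outside the lists also moved. All genes here were picked once their values were known. Slc39a5, a zinc importer, was at 0.29, 0.35 and 0.19 in Control and 16.8, 6.74 and 6.64 in DEHP libraries, and Defb1, a defensin, at 0.64, 0.19 and 0.48 in Control and 15.0, 9.60 and 8.11 in DEHP libraries. Serinc2, a membrane protein, was at 4.49, 3.45 and 4.33 in Control and 41.6, 28.9 and 33.7 in DEHP libraries. All DEHP values of these genes lay above all Control values, and each was called in all 19 other settings. Slc39a5 and Defb1 were below 1 in every Control library and could pass the filter only through the other libraries. The filter and the choice of genes therefore partly fix these outcomes.

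Retinol dehydrogenases and a relative moved in both directions. Rdh16, a retinol dehydrogenase, was at 24.8, 23.8 and 24.3 in Control and 108, 82.7 and 93.8 in DEHP libraries, and rose by 1.91 (SE 0.16), and Rdh11 rose by 1.37 (SE 0.18). Sdr9c7, a related short-chain dehydrogenase, was at 18.9, 17.9 and 18.7 in Control and 3.84, 5.26 and 5.18 in DEHP libraries, and fell by 1.77 (SE 0.22). Enho, which encodes the secreted peptide adropin, was at 14.1, 22.7 and 14.7 in Control and 4.65, 4.04 and 5.27 in DEHP libraries, and Fkbp5, a common target of the glucocorticoid receptor, at 39.5, 49.7 and 34.5 in Control and 17.2, 16.2 and 16.4 in DEHP libraries. Both fell without overlap between groups, Enho being called in 19 and Fkbp5 in 18 of the 19 other settings.

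Raet1d and Raet1e, ligands of the natural killer receptor NKG2D, were at 16.5, 11.6 and 9.03 in Control and 34.3, 31.3 and 44.4 in DEHP libraries and at 5.08, 3.08 and 3.60 in Control and 14.1, 11.9 and 16.4 in DEHP libraries. Cxcl1, a neutrophil chemokine, was at 4.17, 6.00 and 3.91 in Control and 13.2, 12.9 and 17.2 in DEHP libraries. All 3 were called higher. Of 8 neutrophil markers 2 were tested, of 9 T and NK cell markers 2 were tested, and 0 were called in either list. Coq8a, of ubiquinone synthesis, rose by 1.61 (SE 0.15), and Clpx, a mitochondrial unfoldase that also activates the first enzyme of heme synthesis, rose by 1.39 (SE 0.22). The abundant plasma inhibitor Serpina3k was at 7911, 7269 and 6504 in Control and 1455, 3817 and 2965 in DEHP libraries, lowest in DEHP replicate 1, and was called lower here and in 14 of the 19 other settings.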
